A study of Mus musculus with 20 samples.

Results

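The genes described here were Apoe and its neighbours on mouse chromosome 7, 44 of the 55291 gene symbols in the count table, listed by name and place in the genome, with earlier results of these data known. All 44 were located on chromosome 7 in the RefSeq annotation of GRCm38.p6, the build named in the submitters' processing notes. Apoe lay at chr7:19696244-19701310 on the minus strand, with 38 of the listed genes at lower and 5 at higher coordinates. Ppp5c and Hif3a lay 2668.3 and 2633.8 kb before Apoe and Plaur lay 4759.6 kb after it, whereas every other listed gene lay within 805.8 kb of Apoe.

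The left hemi-brains of 20 mice were sequenced, all female, aged 18 months (18 MO) and of the strain C57bl/6, in which mouse Apoe had been replaced by a human allele. APOE2, APOE3 and APOE4 mice were homozygous for the respective allele, which is driven by the mouse promoter, with 5 mice per group. A further 5 mice were titled APOE4D and carried the genotype label APOE4, and the sources used here do not say what the letter D stands for. All groups therefore carried a replaced Apoe locus, and no mouse with an unmodified locus was among the libraries analysed here. Each allele was introduced by gene targeting, and the sources used here do not say how much DNA on either side of the locus each line kept from the targeted cells.

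Apolipoprotein E is the main lipid carrier protein of the brain, secreted largely by astrocytes and taken up through receptors of the LDL receptor family. In mouse and human, its gene sits in a compact cluster with the genes for the small apolipoproteins Apoc1, Apoc2 and Apoc4 and beside Tomm40, which encodes the channel of the translocase through which proteins enter mitochondria. The rest of this gene-dense region encodes unrelated proteins, among them splicing factors, DNA repair enzymes, kinases and NF-kappaB subunits.

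The end of Tomm40 and the start of the Apoe gene model were next to each other on the minus strand (chr7:19701313-19715442 for Tomm40), and Apoc1 lay at chr7:19689480-19692659, 3.6 kb from Apoe. Some of the listed genes shared bases with another annotated gene, 12 in all. Ercc2 and Klc3 overlapped on opposite strands, as did Ercc1 with Cd3eap, Ckm with A930016O22Rik and Bcl3 with Gm16174. The library kit marks strand, but the sources used here do not say whether counting used it, so reads from such a pair may not have been told apart. Over the 20 libraries, Ercc2 had 25204 reads and Klc3 1745, Ercc1 16520 and Cd3eap 17471, and Bcl3 689 and Gm16174 18. Apoc2 and Apoc4 shared bases with Gm44805 on the same strand, and Gm44805 had 0 reads. How reads in bases shared on the same strand were counted was not examined here.

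The promoters of 5 genes are shown because their transcripts include those with the smallest p in the comparison of APOE4 with APOE3 (Eml2, Trappc6a), a transcription factor gene lower in all 3 groups set against APOE3 (Mypop), a gene with nearly equal levels in every group (Nova2) and the replaced gene itself (Apoe). Sequences are from RefSeq on GRCm38.p6, 5′ to 3′ on the gene's own strand, from 250 bases before to 50 bases after a transcript start. Capitals mark the GC box (GGGCGG, or CCGCCC on the other strand) and the CCAAT box (CCAAT, or ATTGG on the other strand). In 1 place in Trappc6a, CCAAT and ATTGG overlap. The windows are chr7:19699139-19699438, minus strand for Apoe, chr7:19176171-19176470, plus strand for Eml2, chr7:19508420-19508719, plus strand for Trappc6a, chr7:18990995-18991294, plus strand for Mypop and chr7:18925638-18925937, plus strand for Nova2. The Apoe window starts from a transcript that begins inside the gene model given above.
Apoe: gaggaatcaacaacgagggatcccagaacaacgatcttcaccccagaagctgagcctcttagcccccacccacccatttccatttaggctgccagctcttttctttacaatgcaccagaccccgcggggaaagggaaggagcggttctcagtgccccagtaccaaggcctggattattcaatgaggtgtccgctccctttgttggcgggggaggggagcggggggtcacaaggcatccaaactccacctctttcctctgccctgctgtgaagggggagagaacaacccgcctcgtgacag
Eml2: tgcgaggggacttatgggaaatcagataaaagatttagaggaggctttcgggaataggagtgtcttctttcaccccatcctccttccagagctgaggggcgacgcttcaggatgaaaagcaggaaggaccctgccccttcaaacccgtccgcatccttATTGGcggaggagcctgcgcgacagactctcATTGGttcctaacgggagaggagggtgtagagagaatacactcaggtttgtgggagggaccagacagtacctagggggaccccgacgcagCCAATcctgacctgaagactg
Trappc6a: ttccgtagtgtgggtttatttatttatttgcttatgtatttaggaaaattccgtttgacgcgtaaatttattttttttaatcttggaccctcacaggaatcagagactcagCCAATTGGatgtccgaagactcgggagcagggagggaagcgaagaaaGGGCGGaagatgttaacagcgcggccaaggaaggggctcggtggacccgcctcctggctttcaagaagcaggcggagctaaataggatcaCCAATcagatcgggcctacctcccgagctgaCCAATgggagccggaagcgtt
Mypop: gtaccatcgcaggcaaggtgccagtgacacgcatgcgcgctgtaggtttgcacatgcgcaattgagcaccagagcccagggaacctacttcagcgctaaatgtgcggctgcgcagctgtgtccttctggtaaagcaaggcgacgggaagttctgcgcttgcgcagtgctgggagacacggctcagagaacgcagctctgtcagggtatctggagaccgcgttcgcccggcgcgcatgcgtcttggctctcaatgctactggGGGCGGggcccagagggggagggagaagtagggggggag
Nova2: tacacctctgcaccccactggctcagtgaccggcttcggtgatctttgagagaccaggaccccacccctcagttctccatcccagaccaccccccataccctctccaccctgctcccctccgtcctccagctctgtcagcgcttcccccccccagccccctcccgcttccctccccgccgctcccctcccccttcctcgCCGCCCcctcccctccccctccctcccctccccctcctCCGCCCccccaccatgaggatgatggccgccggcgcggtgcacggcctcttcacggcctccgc

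Promoter windows were matched for 38 of the 44 genes. A GC box stood in 30 of them (78.9%), against 35.7% of all 32851 windows of 300 bases in the RefSeq table. Their median GC content was 59.5%, against 52.7% over all windows. A CCAAT box stood in 14 (36.8%, against 37.4% of all) and TATAAA or its complement in none (against 13.6% of all). Among the 16 matched genes that were lower in APOE4 than in APOE3, 13 held a GC box (81.2%), and among the other 22 it was 17 (77.3%). Trappc6a and Bloc1s3 were transcribed in opposite directions from starts 300 bases apart.

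Total counts per library ranged from 32404258 to 51960932, with 43051666 to 51960932 in APOE3, 42723532 to 44852581 in APOE2, 33032138 to 46887242 in APOE4 and 32404258 to 37947330 in APOE4D. Levels are given in CPM, counts scaled to a common library size, with library sizes adjusted for composition by TMM. Nothing beyond the mouse IDs ties a library to a litter or batch, and the p-values set group differences against the spread between these mice. IDs beginning with FH were carried by 2 APOE2, 2 APOE4 and 3 APOE4D mice and by no APOE3 mouse. One APOE3 library, F61N, had 48 reads of Xist, the RNA of the inactive X chromosome, whereas the other 19 had 12151 to 24959, although all mice were labelled female. Markers of neurons, astrocytes and oligodendrocytes were present in every library. In whole hemi-brain RNA, fewer cells of a type and less RNA per cell cannot be told apart.

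The first comparison asked how the genes around Apoe differed between the risk allele APOE4 and the common allele APOE3. Of the 40 genes that passed the filter on low counts, 20 were lower in APOE4 and 0 were higher by edgeR's quasi-likelihood test with Benjamini-Hochberg adjustment over all genes. Over all 21022 genes tested, 10.2% were lower and 10.8% higher. All 40 log2 fold changes were below 0, with a median of -0.21, whereas the median of all genes was -0.011 and 51.97% of all genes were below 0. The 5 APOE4 libraries lay below all 5 APOE3 libraries for 11 of the 40 genes (27.5%), against 5.86% of all genes. The 4 genes not tested were Apoc2, Apoc4, Ckm and Cblc.

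The count of 20 changed with the mice included and when the joint trend of the fold changes over transcript length and GC content was removed. Without the APOE3 mouse F39N it was 11, without the APOE3 mouse F10N 13, without the APOE4 mouse FH78 12, and without the APOE3 mouse F61N 23. Over all genes, the lower counts in those fits were 1497, 1551, 1388 and 2533, against 2149 with all mice. The median log2 fold change of the listed genes lay between -0.23 and -0.18 with any 1 APOE3 or APOE4 mouse left out. Leaving out all mice with FH IDs, which left 3 APOE4 mice, gave 8 listed genes with a median of -0.22. Of all 21149 genes in that fit, 780 were lower. With the trend removed, 1 gene was lower (Eml2) and 1 was higher (Tomm40), with a median of -0.088. Over all 21022 genes of that fit, 1030 were lower and 1195 higher, with a median of 0.0047. In that fit Apoe was at -0.077 (adjusted p = 0.338) and Apoc1 at -0.46 (adjusted p = 0.073).

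**Figure D1:**
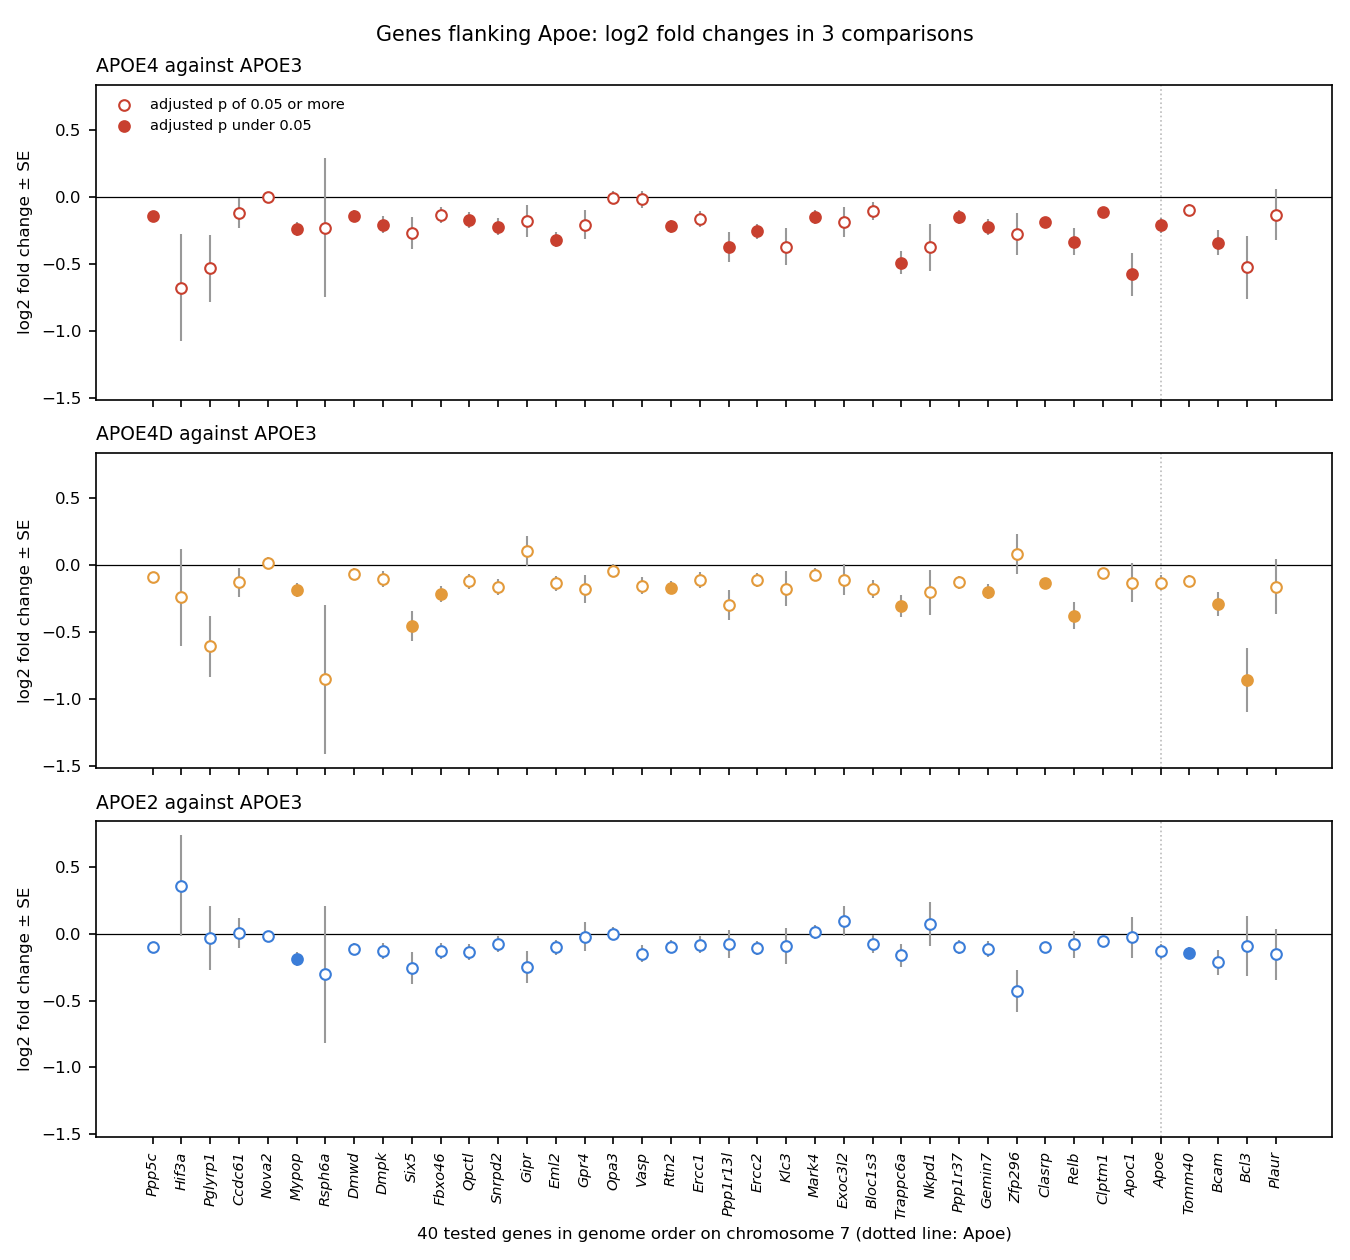
Log2 fold change of the 40 tested genes (vertical axis, bars are ± SE) in genome order along chromosome 7 (horizontal axis) for APOE4, APOE4D and APOE2, each against the same 5 APOE3 libraries. Filled points passed an adjusted p of 0.05: 20 genes in the upper panel, 10 in the middle and 2 in the lower, and all of them lay below 0.

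Apoe itself, as counted on the mouse gene, was at 46.8, 42.5, 45.5, 40.01 and 42.2 CPM in the APOE3 libraries, in the order F10N, F37N, F39N, F61N and F64M that is used throughout for this group. The APOE4 libraries, in the order F58M, F78N, F95K, FH66 and FH78, held 37.5, 38.6, 33.8, 41.5 and 36.7 CPM. Only FH66 reached into the APOE3 range. The log2 fold change was -0.21 (SE 0.056, adjusted p = 0.00933). These reads were assigned to the mouse gene model in mice whose gene is human, and how reads of the human transcript were assigned was not examined here. The APOE2 libraries, in the order F35J, F74M, FH111, FH124 and F42N, held 36.2, 38.2, 40.5, 40.7 and 42.3 CPM, and the APOE4D libraries, in the order F12M, F19M, FH51, FH68 and FH85, held 37.04, 36.7, 42.6, 42.1 and 39.7 CPM. Both groups overlapped APOE3, at -0.13 (SE 0.056, adjusted p = 0.179) for APOE2 and -0.13 (SE 0.056, adjusted p = 0.138) for APOE4D.

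Apoc1, a small apolipoprotein of circulating lipoproteins that astrocytes also make, was at 3.09, 3.27, 4.94, 3.93 and 3.23 CPM in APOE3 and 2.07, 2.09, 2.72, 2.78 and 2.69 CPM in APOE4. Every APOE4 library lay below every APOE3 library. The log2 fold change of -0.58 (SE 0.16, adjusted p = 0.0126) was the largest decrease among the 20 genes. The call was lost without F39N, which was the highest library. It was also lost with APOE4 and APOE4D joined (-0.34, adjusted p = 0.0976). The APOE2 libraries ranged more widely, at 2.47, 4.69, 3.86, 3.08 and 4.03 CPM, and the APOE4D libraries were at 2.99, 3.24, 3.15, 3.67 and 3.82 CPM, all above the highest APOE4 library. Apoc2, the cofactor of lipoprotein lipase, had no read in any library. If all its reads could be counted, this allows up to 0.0574 to 0.0945 CPM per library (3 reads). Apoc4 had 24 reads over all 20 libraries. Both genes share bases with Gm44805 on the same strand, so these counts may leave out reads and do not show that the transcripts were absent or low.

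Tomm40, whose product is the import channel of the mitochondrial outer membrane, was at 83.7, 72.9, 79.4, 73.7 and 82.3 CPM in APOE3 and 74.3, 74.04, 71.3, 76.1 and 71.96 CPM in APOE4. The groups overlapped, and the log2 fold change was -0.10 (SE 0.042, adjusted p = 0.106). With the length and GC trend removed, the value changed sign to 0.11 (adjusted p = 0.0308). Opa3, a mitochondrial protein mutated in optic atrophy, was at 63.6 ± 2.55 CPM in APOE3 and 63.5 ± 4.32 CPM in APOE4 (SD, n = 5), a log2 difference of -0.0064 (SE 0.049).

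**Figure D2:**
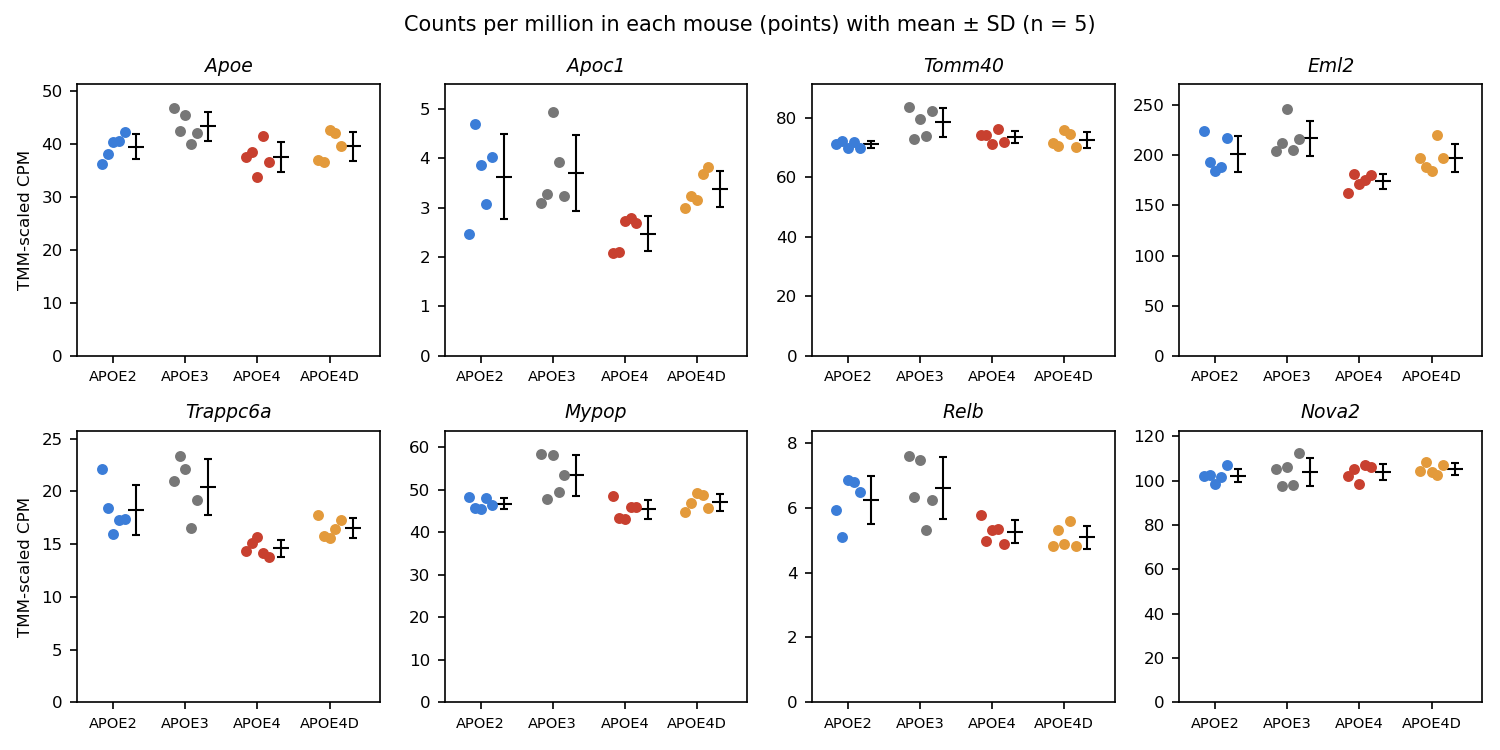
Level of 8 of the listed genes in TMM-scaled CPM (vertical axis, from 0) in each mouse of the 4 groups. Points are mice and the bar beside them is the mean ± SD (n = 5). The APOE4 points of Apoc1, Eml2 and Trappc6a lay below all APOE3 points, and Nova2 was level across the groups.

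Counts by role are of few genes each and stand against 20 of the 40 listed genes and 10.2% of all genes. Among the cytoskeletal and membrane-shaping genes, 3 of 6 tested were lower in APOE4. Eml2, a microtubule-associated protein, was at 204, 212, 246, 205 and 216 CPM in APOE3 and 163, 181, 171, 175 and 180.4 CPM in APOE4. No library of one group reached the other. The log2 fold change was -0.32 (SE 0.057, adjusted p = 0.000476), the smallest p among the 40 genes, and Eml2 was called under every alternative tried, including the one without the length and GC trend (-0.18, adjusted p = 0.0246). Rtn2, a reticulon that shapes the endoplasmic reticulum, was at 96.5, 91.01, 104, 86.4 and 96.1 CPM in APOE3 and 82.03, 83.6, 74.7, 85.2 and 83.4 CPM in APOE4. The groups did not overlap, with the lowest APOE4 value in F95K, and the log2 fold change was -0.22 (SE 0.048, adjusted p = 0.00227). Clptm1, a membrane protein involved in the traffic of GABA receptors, also fell, from 177 ± 9.003 CPM to 164 ± 3.86 CPM (log2 fold change -0.11, SE 0.038, adjusted p = 0.0347). Vasp, which promotes the growth of actin filaments, was at 13.8 ± 1.01 CPM and 13.7 ± 0.884 CPM with a log2 difference of -0.017 (SE 0.065).

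Of the 4 tested genes of vesicle and organelle traffic, Trappc6a alone was called. This subunit of the TRAPP tethering complex was at 20.96, 23.4, 22.2, 16.5 and 19.2 CPM in APOE3 and 14.4, 15.1, 15.7, 14.1 and 13.7 CPM in APOE4. All APOE4 libraries lay below F61N, the lowest APOE3 library. The log2 fold change was -0.49 (SE 0.088, adjusted p = 0.000557), a level 28.8% lower in APOE4. Its head-to-head neighbour Bloc1s3, a subunit of a complex for lysosome-related organelles, was not called (log2 fold change -0.10, SE 0.071, adjusted p = 0.314). Klc3, a kinesin light chain, did not overlap between the groups at 2.35 ± 0.180 CPM and 1.82 ± 0.211 CPM, and its adjusted p missed the threshold (log2 fold change -0.37, SE 0.14, adjusted p = 0.0556).

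The RNA processing genes were lower in 3 of 4 cases. Clasrp, an SR-rich protein that binds a kinase of splicing factors, was at 82.2, 74.5, 86.7, 76.7 and 78.3 CPM in APOE3 and 69.6, 70.7, 68.8, 71.4 and 69.7 CPM in APOE4. The APOE4 libraries spanned a narrow range below all APOE3 libraries, and the log2 fold change was -0.19 (SE 0.042, adjusted p = 0.00253). Gemin7, a part of the SMN complex that assembles spliceosomal particles, was at 30.3, 25.1, 31.7, 28.7 and 26.6 CPM in APOE3 and 26.3, 24.6, 25.03, 24.5 and 21.9 CPM in APOE4. F58M in APOE4 lay above F37N in APOE3, so the groups overlapped, and the log2 fold change was -0.22 (SE 0.059, adjusted p = 0.00866). Snrpd2, an Sm core protein of those particles, was at 45.3, 49.5, 56.9, 42.5 and 47.4 CPM in APOE3 and 41.7, 41.3, 43.3, 41.4 and 40.3 CPM in APOE4. Its APOE4 values were close together and overlapped APOE3 only at F61N (log2 fold change -0.22, SE 0.061, adjusted p = 0.0118). Nova2, a neuronal splicing regulator, was at 105, 97.5, 106, 97.9 and 113 CPM in APOE3 and 102, 105, 98.3, 107 and 106 CPM in APOE4. The values interleaved and the log2 difference was -0.0038 (SE 0.042).

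Of the DNA repair genes, Ercc2, the XPD helicase of the transcription factor TFIIH, was at 30.6, 34.2, 36.1, 31.03 and 34.1 CPM in APOE3 and 25.9, 30.3, 27.998, 29.1 and 25.9 CPM in APOE4. The groups came close at F10N and F78N but did not overlap (log2 fold change -0.26, SE 0.054, adjusted p = 0.0017). Ercc1, the partner of the XPF nuclease, had a log2 fold change of -0.16 (SE 0.061, adjusted p = 0.0581) and was not called. Among the 4 transcription factor genes, Mypop, a Myb-related repressor, was at 58.3, 47.8, 58.04, 49.4 and 53.5 CPM in APOE3 and 48.5, 43.4, 43.1, 45.9 and 45.9 CPM in APOE4. F58M in APOE4 lay above F37N, the lowest APOE3 library, and the log2 fold change was -0.24 (SE 0.053, adjusted p = 0.0023). Hif3a, a hypoxia-inducible factor, varied widely, from 4.51 to 7.03 CPM in APOE4 and from 7.17 to 12.9 CPM in APOE3, and its log2 fold change of -0.68 (SE 0.40, adjusted p = 0.262) was not called although the groups did not overlap.

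All 5 tested genes of kinases, phosphatases and their regulators were lower in APOE4, with log2 fold changes from -0.37 to -0.15. Of the whole list, 20 of 40 were. Ppp5c, a serine/threonine phosphatase whose gene lay 2668.3 kb from Apoe, was at 139, 123, 133, 133 and 133 CPM in APOE3 and 122, 122, 116, 122 and 117 CPM in APOE4. The groups did not overlap, and the log2 fold change of -0.15 (SE 0.039, adjusted p = 0.00936) was no longer called without F10N. Dmpk, the kinase whose gene carries the repeat of myotonic dystrophy in human, fell from 29.5 ± 2.74 CPM to 25.7 ± 1.60 CPM (log2 fold change -0.21, SE 0.062, adjusted p = 0.0183). Mark4, a kinase that phosphorylates tau and other microtubule proteins, fell by a log2 of 0.15 (74.7 ± 6.19 to 67.4 ± 3.66 CPM, adjusted p = 0.0387). Ppp1r13l, the p53 inhibitor iASPP, had a log2 fold change of -0.37 (SE 0.11), and Ppp1r37, an inhibitor of protein phosphatase 1, one of -0.15 (SE 0.053).

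Relb, an NF-kappaB subunit, was at 7.60, 6.33, 7.48, 5.31 and 6.24 CPM in APOE3 and 5.76, 4.97, 5.33, 5.35 and 4.89 CPM in APOE4. The groups overlapped at F61N, and the log2 fold change was -0.33 (SE 0.10, adjusted p = 0.0238). Bcl3, the other gene of that family and a nuclear IkappaB protein, was at 1.71, 0.789, 0.689, 1.01 and 0.968 CPM in APOE3 and 0.762, 0.465, 0.981, 0.599 and 0.798 CPM in APOE4. F10N was the highest library and the groups overlapped (log2 fold change -0.52, SE 0.24, adjusted p = 0.116). Bcam, a laminin receptor of endothelium and epithelium, fell from 30.7 ± 4.31 CPM to 24.3 ± 1.84 CPM (log2 fold change -0.34, SE 0.092, adjusted p = 0.0137) and was the only called gene of the 4 for adhesion and cell surface proteins. Qpctl, a Golgi glutaminyl cyclase, and Dmwd, a WD-repeat protein, had log2 fold changes of -0.17 and -0.14.

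Markers of other cell types were set beside these results. The 5 blood markers were all lower in APOE4 than in APOE3, with sums of 72.95 to 121 CPM against 149 to 401 CPM that did not overlap. Of the 5 genes of pericytes, smooth muscle and fibroblasts, 1 was lower, as was 1 of 4 for each of neurons, astrocytes, microglia and endothelial cells and 1 of the 2 tested genes of liver. Of the 4 choroid plexus genes, 1 was higher in APOE4 and 0 were lower, and the list's sums overlapped at 617 to 848 CPM in APOE4 and 686 to 944 CPM in APOE3. None of the genes of oligodendrocytes, skeletal muscle and pituitary that were tested passed the threshold. The part of these markers in the values of the genes near Apoe was not tested. Libraries thinned to the same total gave 20 lower genes as well.

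APOE4D was set against the same APOE3 libraries, so the 2 comparisons are not independent of each other. Of the 40 tested genes, 10 were lower in APOE4D and 0 higher, against 4.49% and 3.92% of all 21041 genes tested. The median log2 fold change was -0.14, with 37 of 40 below 0, and the median of all genes was -4.31e-05. Without the APOE3 mouse F10N the count was 1, without F39N 3, without the APOE4D mouse F12M 3, without FH68 6 and without F61N 15. It was 0 without the mice with FH IDs, which left 2 APOE4D mice and a median of -0.18. Over all genes, the lower counts in these fits were 558, 655, 539, 711, 1537 and 306 in that order, against 944 with all mice. With the length and GC trend removed, Fbxo46 (-0.20, adjusted p = 0.0282) and Relb (-0.33, adjusted p = 0.0294) were the 2 genes called. Over all 21041 genes, 587 were lower and 693 higher in that fit.

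Both NF-kappaB genes were lower in APOE4D. Relb was at 4.83, 5.30, 4.88, 5.58 and 4.82 CPM in APOE4D, overlapping APOE3 only at F61N (log2 fold change -0.38, SE 0.10, adjusted p = 0.0155). Bcl3 was at 0.664, 0.604, 0.630, 0.372 and 0.588 CPM in APOE4D, all below the APOE3 libraries, with FH68 the lowest at 14 reads. Its log2 fold change was -0.86 (SE 0.24, adjusted p = 0.023) and rested on 14 to 82 reads per library over the whole series. The Bcl3 call was lost in 6 of 20 alternatives, among them without F10N and without FH68. The Relb call was lost in 4 of 20, namely without F10N, without F39N, without F12M and without the mice with FH IDs.

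Of the transcription factor genes, Six5, a homeobox gene next to Dmpk, was at 6.41, 6.04, 5.76, 4.54 and 5.62 CPM in APOE3 and 4.70, 3.79, 4.10, 3.99 and 4.18 CPM in APOE4D. The groups overlapped only at F61N and F12M (log2 fold change -0.45, SE 0.11, adjusted p = 0.0117). Mypop was at 44.7, 46.8, 49.3, 48.6 and 45.6 CPM in APOE4D, with FH51 and FH68 above F37N in APOE3 (log2 fold change -0.19, SE 0.050, adjusted p = 0.0179). Fbxo46, an F-box protein of ubiquitin ligases, was at 13.4, 12.9, 12.8, 12.1 and 13.2 CPM in APOE3 and 11.2, 11.6, 10.2, 10.8 and 11.8 CPM in APOE4D. No library of one group reached the other, and the log2 fold change was -0.21 (SE 0.059, adjusted p = 0.0229). The Fbxo46 call was lost in 9 of 20 alternatives, among them 5 of the 10 fits with 1 library left out. Fbxo46 and Bcl3 were the 2 genes of the 40 whose APOE4D libraries all lay below APOE3, against 3.34% of all genes.

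Trappc6a was at 17.7, 15.8, 15.6, 16.5 and 17.3 CPM in APOE4D, where F12M and FH85 lay above F61N in APOE3 (log2 fold change -0.30, SE 0.080, adjusted p = 0.0173). Gemin7 was at 23.3, 25.5, 25.4, 24.7 and 25.1 CPM, and 3 of these libraries lay at or above F37N in APOE3 (log2 fold change -0.20, SE 0.055, adjusted p = 0.0224). Rtn2 was at 80.9, 80.3, 91.4, 89.1 and 80.7 CPM. FH51 and FH68 stood higher than the other APOE4D libraries and overlapped APOE3 (log2 fold change -0.17, SE 0.048, adjusted p = 0.028).

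Clasrp was at 69.7, 73.95, 74.8, 71.3 and 73.1 CPM in APOE4D and overlapped APOE3 at F37N and FH51 (log2 fold change -0.14, SE 0.040, adjusted p = 0.0299). Bcam was at 33.5, 36.5, 30.01, 26.2 and 27.3 CPM in APOE3 and 27.4, 25.98, 23.7, 22.4 and 26.3 CPM in APOE4D. F12M and FH85 lay above F61N, the lowest APOE3 library (log2 fold change -0.29, SE 0.088, adjusted p = 0.0436). The Bcam call was lost in 15 of 20 alternatives, among them 8 of the 10 fits with 1 library left out. Eml2, at 198, 188, 185, 220.1 and 197 CPM in APOE4D, overlapped APOE3 and was not called (log2 fold change -0.13, SE 0.058, adjusted p = 0.149).

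The second question was whether the neuroprotective allele APOE2 differed from APOE3 in the same region. Of the 40 genes, 2 were lower in APOE2 and 0 higher, against 3.05% and 1.84% of all genes. The median log2 fold change was -0.10, with 35 of 40 below 0, and the median over all genes was 0.0017. Tomm40 was at 71.3, 72.2, 69.8, 71.97 and 69.9 CPM in APOE2, a narrow range that lay below all 5 APOE3 libraries, as for 1 of the 40 genes and 2.73% of all genes (log2 fold change -0.14, SE 0.042, adjusted p = 0.0478). With the length and GC trend removed the Tomm40 value was 0.0030 (adjusted p = 0.979). Mypop was at 48.2, 45.6, 45.3, 48.02 and 46.3 CPM in APOE2 and overlapped APOE3 at F37N (log2 fold change -0.19, SE 0.052, adjusted p = 0.0284). Leaving out 1 mouse at a time gave 0 to 4 called genes, with 0 without F74M, F42N, FH111, F10N, F39N or F64M, 1 without FH124 or F35J and 4 without F61N. Leaving out all FH mice gave 0, with 3 APOE2 mice left and a median of -0.11. Over all genes, 460 were lower in that fit, 350 to 1110 with 1 mouse left out and 642 with all mice.

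Between APOE2 and APOE4, 3 of 40 genes were higher in APOE2 and 0 lower, against 3.29% and 2.60% of all genes. The median log2 fold change was 0.084, and 33 of 40 values were above 0. Eml2 was at 224, 194, 184, 189 and 217 CPM in APOE2, all above the highest APOE4 library (log2 fold change 0.22, SE 0.057, adjusted p = 0.0234). The groups were apart in this direction for 4 of the 40 genes and 3.97% of all genes. Trappc6a was at 22.2, 18.5, 15.9, 17.3 and 17.4 CPM in APOE2. F35J stood above the other APOE2 libraries and FH111 came close to APOE4, but the groups did not overlap (log2 fold change 0.33, SE 0.088, adjusted p = 0.029). Apoc1 was higher in APOE2 by a log2 of 0.55 (SE 0.16, adjusted p = 0.043) although F35J fell within the APOE4 range. The count was 0 to 3 with 1 mouse left out (0 without F58M or FH66, 1 without F35J, F74M, F42N, F95K or FH78). It was 1 with APOE4 and APOE4D joined, 1 without the FH mice and 0 without the length and GC trend. Over all genes, 386 to 690 were higher with 1 mouse left out, against 692 with all mice. The higher genes numbered 725 with the groups joined, 252 without the FH mice and 665 without the trend.

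APOE4D and APOE4 share the genotype label, and 0 of the 40 genes passed the threshold between them in edgeR's quasi-likelihood test, against 0% of all genes in each direction. At an unadjusted p under 0.05 there were 7 of the 40 and 2293 of all genes. DESeq2 called 0 of the 40 and 34 genes in all, and limma-voom 0 in all. The median log2 difference was 0.051, with 28 of 40 above 0. Eml2 and Apoc1 were the 2 genes whose APOE4D libraries lay above all APOE4 libraries (1.52% of all genes), at 0.18 (SE 0.058, adjusted p = 0.312) and 0.44 (SE 0.16, adjusted p = 0.335). Fitted on these 10 libraries alone, Eml2 was called (0.18, adjusted p = 0.0256). Over all 20951 genes of that fit, 86 were higher and 124 lower in APOE4D. A p that misses the threshold does not show that the groups were alike: for Apoe the difference of 0.074 had an interval of ± 2 SE from -0.039 to 0.19.

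**Figure D3:**
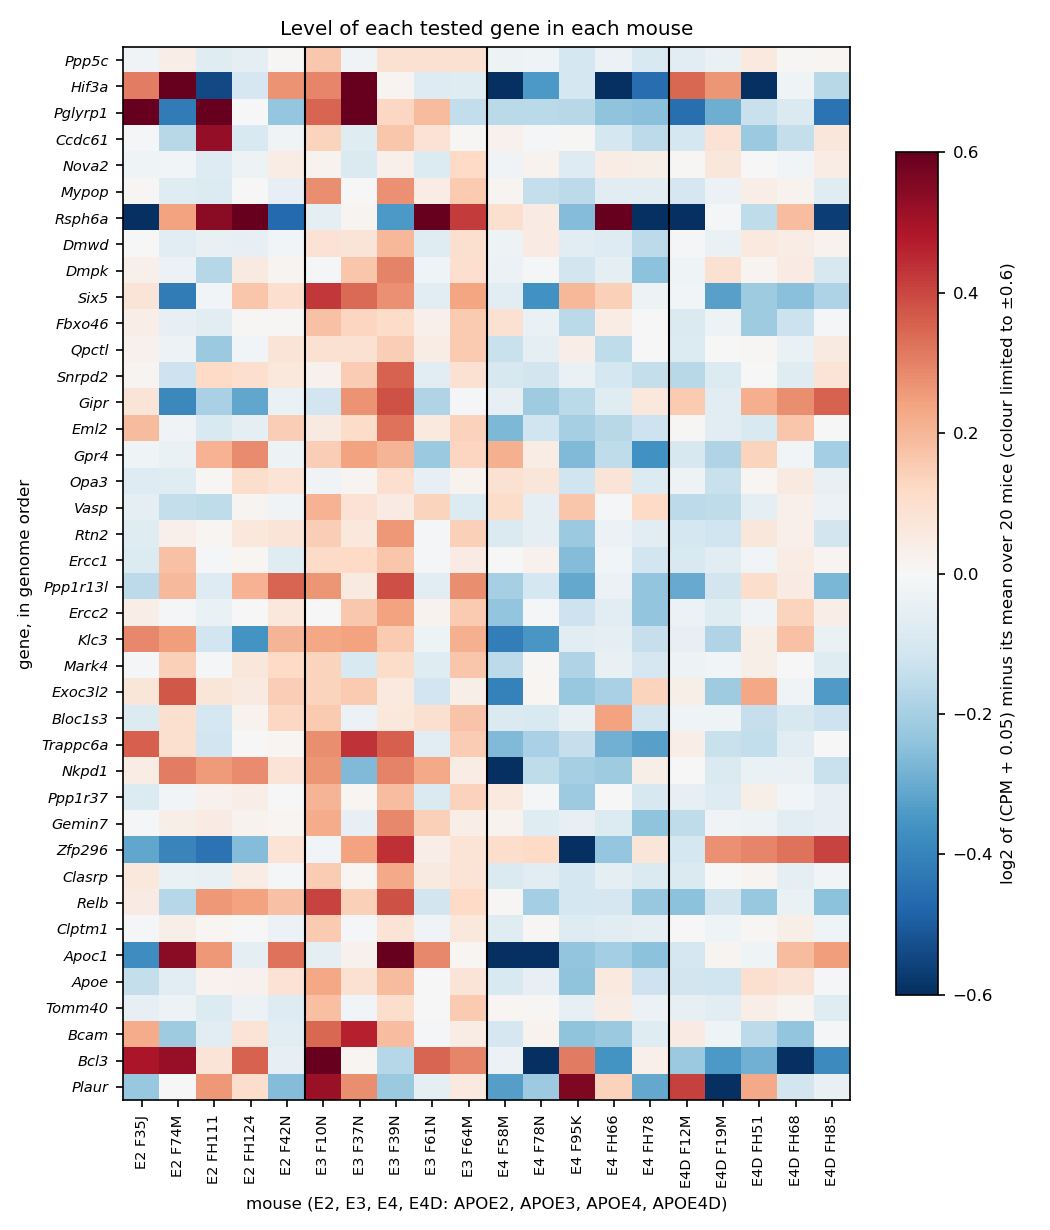
Level of the 40 tested genes (rows, in genome order) in each of the 20 mice (columns, by group), as log2 of CPM + 0.05 minus the gene's mean over all mice, with colour limited to ± 0.6. Most cells of the APOE3 columns F10N and F39N lay above the mean (red) and most of F95K and FH78 in APOE4 below it (blue).

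Taken over the genes, all 5 APOE3 mice stood above all 5 APOE4 mice. The median of the 40 genes, as log2 against each gene's mean over the 20 mice, was 0.18 in F39N, 0.16 in F10N, 0.098 in F64M and 0.089 in F37N, and -0.0087 in F61N. In APOE4 it ranged from -0.12 in F95K to -0.056 in F78N, in APOE4D from -0.065 to 0.0021, and in APOE2 from -0.028 to 0.017. The same median over all genes lay between -0.0021 and 0.011 in the 20 mice. F39N was the highest mouse for 12 of the 40 genes and for 11.9% of all genes, and F10N for 11 of the 40 and 6.42% of all. F95K was the lowest for 12 of the 40 and for 6.38% of all genes. The spread between mice of a group had a median coefficient of variation of 5.75% in APOE4D to 7.98% in APOE3 over the 37 listed genes above 1 CPM.

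Base composition moved with the fold changes. The canonical transcripts of the 40 genes had a median GC content of 58.4% (51.5 to 64.1%), whereas the median of all tested genes was 49.9%. In all genes, the share lower in APOE4 than in APOE3 was 1.37% below 44% GC, 6.76% from 48 to 52% GC and 36.6% at 60% GC and above, and the median log2 fold change went from 0.15 to -0.16. Over the 8178 genes within the GC range of the listed genes, 19.5% were lower, with a median of -0.095. The 2 highest bins held 12 and 15 listed genes, of which 6 and 9 were lower, against 25.6% and 36.6% of all genes there. Their medians were -0.22 and -0.24 (-0.12 and -0.16 for all genes). From 52 to 56% GC, 4 of 11 listed genes were lower, against 13.7% of all, with medians of -0.16 and -0.068. From 48 to 52% GC it was 1 of 2. APOE4D showed the same order of shares, 0.868% lower below 44% GC and 19.7% at 60% and above, and within the GC range of the listed genes 7.83% of 8190 genes were lower. The GC content is that of the annotated transcripts, and whether it or the position of the genes accounts for the counts was not tested.

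**Figure D4:**
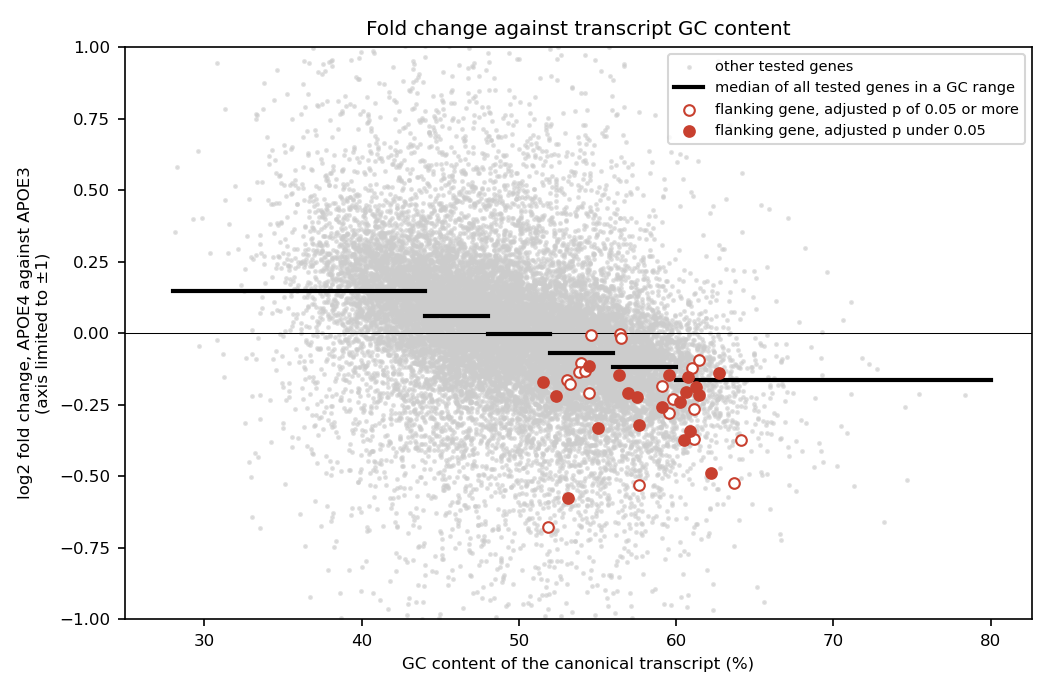
Log2 fold change of APOE4 against APOE3 (vertical axis, limited to ± 1) against GC content of the canonical transcript in percent (horizontal axis) for all tested genes (grey) and the 40 listed genes (red, filled where the adjusted p was under 0.05). The black bars, the median of all genes in a GC range, go from 0.15 to -0.16, and most listed genes lay at or below them.

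The share of genes lower in APOE4 also fell with distance from Apoe. It was 39.4% of 33 tested genes within 0.5 Mb (Apoe left out), 35.3% of 17 from 0.5 to 1 Mb, 29.2% of 65 from 2 to 5 Mb, 22.2% of 162 from 5 to 10 Mb and 21% of 200 from 10 to 20 Mb. It was 13.98% of 973 genes farther along chromosome 7 and 10.6% on the other chromosomes. The bin from 0.5 to 1 Mb held under 20 genes, and no gene was tested from 1 to 2 Mb. Of the 51 genes tested within 1 Mb, Apoe included, 20 were lower. All of these but Irf2bp1, described below, were on the list, which was chosen with earlier results known. The median GC content fell over the same bins, from 59.2% within 0.5 Mb to 49.98% on other chromosomes. Chromosome 7 as a whole had the highest share of lower genes of any chromosome, at 17.4%. In APOE4D against APOE3 the shares were 21.2%, 23.5%, 9.23%, 8.02%, 17.5% and 5.64% in the same order, without a steady fall.

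**Figure D5:**
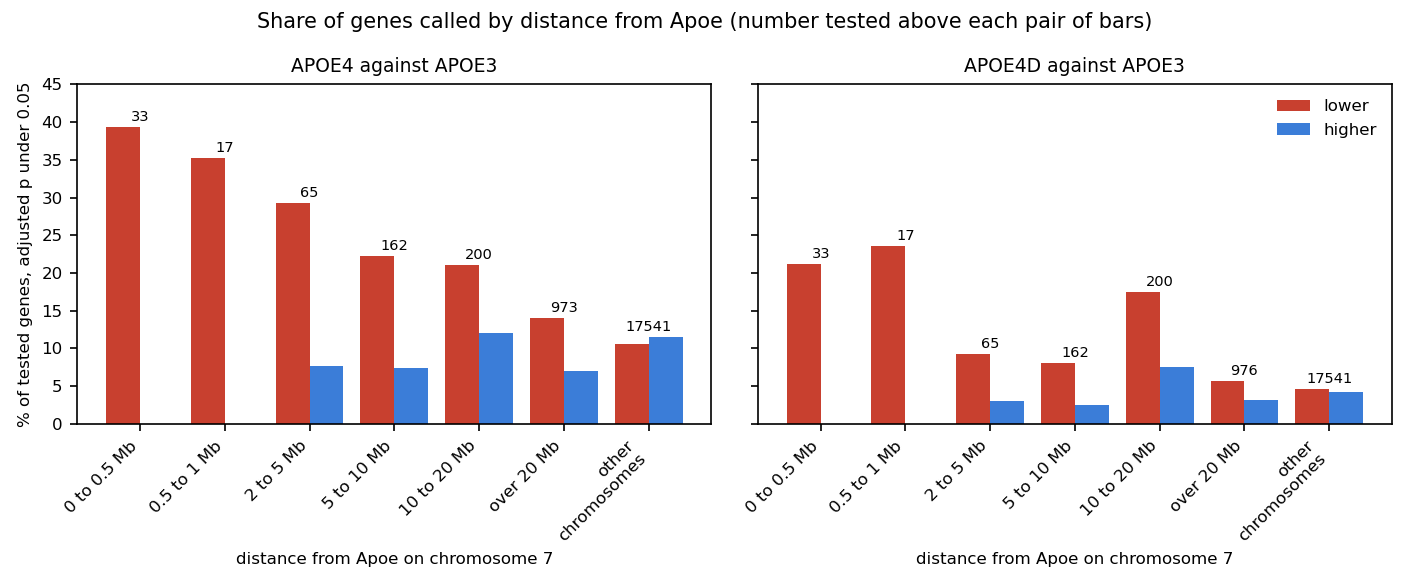
Percentage of tested genes called lower or higher (vertical axis) by distance from Apoe on chromosome 7, with the genes of other chromosomes at the right, in APOE4 and in APOE4D against APOE3. The number tested stands above each pair of bars. No gene within 1 Mb was higher, and the lower share in APOE4 went from 39.4% to 10.6%.

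Genes of the same stretch that were not on the list were counted in the same fit. Of 39 other protein-coding genes within 1 Mb of Apoe, 12 were tested. Their median log2 fold change in APOE4 against APOE3 was -0.13. By the test, 1 was lower and 0 higher, against 10.2% and 10.8% of all genes. The gene was Irf2bp1, a transcriptional co-repressor, at 54.5 ± 3.51 CPM in APOE3 and 48.1 ± 1.96 CPM in APOE4 (log2 fold change -0.18, SE 0.046, adjusted p = 0.00555). In APOE4D, Irf2bp1 was at 49.2 ± 0.964 CPM (log2 fold change -0.15, SE 0.042, adjusted p = 0.0265). Mill2, a class I-like gene of the major histocompatibility family, was lower in APOE2 than in APOE4, at 6.19 ± 0.719 CPM against 8.23 ± 0.377 CPM (log2 fold change -0.41, SE 0.10, adjusted p = 0.0144).

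The remaining listed genes are given by their range over the 20 libraries. Dmwd ranged over 109 to 139.9 CPM, Dmpk over 23.1 to 33.5 CPM, Qpctl over 15.4 to 19.99 CPM, Mark4 over 63.4 to 80.7 CPM, Ppp1r37 over 127 to 171 CPM, Ppp1r13l over 3.73 to 6.07 CPM and Clptm1 over 161 to 189.9 CPM. These genes all passed the test in APOE4 against APOE3. Among genes called in none of the 5 comparisons, Ercc1 ranged over 16.8 to 22.7 CPM, Opa3 over 57.4 to 67.9 CPM, Vasp over 11.7 to 15.03 CPM, Bloc1s3 over 12.3 to 16.01 CPM, Klc3 over 1.55 to 2.56 CPM and Exoc3l2, an exocyst-related gene, over 2.47 to 4.27 CPM. Gipr, the receptor of the gut hormone GIP, ranged over 2.99 to 5.13 CPM, the proton-sensing receptor gene Gpr4 over 5.07 to 7.96 CPM and Plaur, the urokinase receptor, over 0.632 to 1.68 CPM. The centrosomal gene Ccdc61 ranged over 4.22 to 7.14 CPM, Pglyrp1, a peptidoglycan recognition protein, over 1.99 to 5.19 CPM, Zfp296, a zinc finger gene, over 1.15 to 2.62 CPM and Nkpd1 over 0.518 to 1.10 CPM. The lowest of the tested genes in reads was Rsph6a, a radial spoke gene of motile cilia and flagella, with 1 to 15 reads per library. Ckm, the creatine kinase of muscle, and Cblc, a ubiquitin ligase of the Cbl family, had 0 to 5 reads per library, too few for a test.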

How the data were processed

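Libraries (20 left hemi-brains, female, 18 MO) were grouped by the genotype in their titles. Raw counts per gene symbol were deposited by the authors. STAR 2.7.0, featureCounts, DESeq2 and GRCm38 (mm10) are named in the submitters' notes, and the strand setting of the counting is not stated there. Neither the deposited normalized counts (a signal scaled by a factor per library) nor the authors' comparison tables, which hold log2 fold changes, Wald statistics (a score) and p-values, were used. The alignment to GRCm39 that the study's methods describe was not used.

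Tests ran in edgeR 4.0.16 (R 4.3.3). A gene entered a fit with over 0.1 CPM in more than 40% of its libraries, TMM scaled the libraries, and edgeR's robust quasi-likelihood test with Benjamini-Hochberg adjustment over all genes (threshold 0.05) compared the groups. APOE2, APOE3 and APOE4 shared 1 fit, and APOE4D entered a fit of all 20 libraries. Positions and promoters came from RefSeq on GRCm38.p6, and transcript length and GC content from GENCODE, which held both for 96.5% of the tested genes. In simulated counts, 65% of genes changed 1.25-fold and 87% of genes changed 1.5-fold were recovered for APOE4 against APOE3 (20784 genes).

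Members and lists were chosen with earlier results of these data known. Named genes were Apoe, Apoc1 and Tomm40, the 10 listed genes with the smallest p among those called in each comparison, and up to 4 other called protein-coding genes within 1 Mb; other listed genes are given by range or by role. Nova2, Opa3, Vasp and further genes named beside the called ones were chosen after their values were seen. Alternatives were RLE scaling, DESeq2 1.42.0, limma-voom (limma 3.58.1), no filter, only the groups compared, ID series as covariate or left out, a surrogate variable (sva 3.50.0), thinning to 32404258 reads, a loess trend over length and GC removed, APOE4 joined with APOE4D, and each library left out. A fit of all 20 libraries for the genotype comparisons was added after seeing the data. Libraries titled with other ages were not analysed here.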

Additional observations from a re-analysis of the deposited data

Results flagged for a closer look

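In 9 of 176 groups of 5 libraries, 1 mouse stood apart from the other 4 by Dixon's criterion (a gap above 0.71 of the group's range), and chance marks about 5% of groups. The APOE2 mouse F74M was high for Hif3a, at 26.02 CPM (1114 reads) against 5.19 to 9.398 CPM in the others, and for Exoc3l2, at 4.27 CPM against 3.42 to 3.65 CPM. Ccdc61 was at 7.14 CPM in the APOE2 mouse FH111, against 4.39 to 4.91 CPM. In APOE3, F61N was low for Gpr4 at 5.59 CPM, against 7.14 to 7.73 CPM. The APOE4 mouse FH66 was high for Bloc1s3 at 16.01 CPM, against 12.5 to 13.1 CPM, and F78N was high for Clptm1 at 171 CPM, against 161 to 164 CPM. Within APOE4D, Zfp296 was low in F12M at 1.78 CPM (59 reads), against 2.33 to 2.56 CPM, and Bcl3 was low in FH68 at 0.372 CPM (14 reads), against 0.588 to 0.664 CPM. Cblc was at 0.137 CPM in the APOE4D mouse F19M, which is 5 reads.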

How the results depend on the processing

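For APOE4 against APOE3, the count of 20 called genes became 8 without the FH mice (median log2 fold change -0.22, against -0.21 with all mice), 2 with the length and GC trend removed (median -0.088), and 11 to 23 with 1 library left out (median -0.23 to -0.18). For APOE4D against APOE3, the count of 10 became 5 with only the groups compared, 5 with the ID series as a covariate, 0 without the FH mice, 2 with the trend removed, and 1 to 15 with 1 library left out. For APOE2 against APOE3, the count of 2 became 1 with RLE scaling, 1 with no filter, 1 with a surrogate variable, 0 with only the groups compared, 0 with the ID series, 0 without the FH mice, 0 with the trend removed, and 0 to 4 with 1 library left out. For APOE2 against APOE4, the count of 3 became 1 without the FH mice, 1 after thinning, 1 with APOE4 and APOE4D joined, 0 with the trend removed, and 0 to 3 with 1 library left out. For APOE4D against APOE4, the count of 0 became 1 with only the groups compared and stayed 0 with any 1 library left out. The sign of Tomm40 in APOE2 against APOE3 turned, to 0.0030, with the trend removed. Of the 37 fold changes of named genes recomputed, 36 kept their side of the threshold under DESeq2 and 13 with the trend removed. The direction was also required to hold for genes called in the main fit, but not for the others. Leaving out the FH mice left 3 mice in APOE2 and APOE4 and 2 in APOE4D. Calls over all genes moved as well. The 2149 genes lower in APOE4 than in APOE3 became 780 without the FH mice and 1030 with the trend removed. With 1 library left out they became 1388 to 2533. No paired analysis was possible because the labels carry mouse IDs and no replicate numbers shared between groups. Genes under about 1 CPM rest on few reads, and small differences there were not detectable at this depth.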
